A study of Mus musculus with 12 samples.

Results

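The genes described here are the collagen chain genes, taken as every gene whose only symbol in the array's annotation is Col, a number, the letter a and a number. Of 18194 genes measured, 42 met this rule. Each is represented by the probe set with the highest mean over all arrays, chosen from 82 probe sets in all, and 15 of the 42 genes had 1 probe set. The mean of 30 of them lay at or above 5.67, the median of all values in the table, and that of the other 12 lay below it. All values are on the log2 scale, on which a difference of 1 is a 2-fold change. A difference is called higher or lower where limma's p, adjusted by Benjamini-Hochberg over all 18194 genes, is under 0.05.

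Collagens are secreted proteins in which alpha chains wind around each other into a helix. Fibrillar collagens form the tensile fibres of connective tissue, FACIT chains coat those fibres, type IV chains form the sheet of basement membranes, and other classes form beaded filaments or span the cell membrane. In the embryonic heart, collagen is made mainly by cells of the epicardium, the valve cushions and the interstitium, while type IV chains surround muscle and line vessels and endocardium. Nos3 encodes endothelial nitric oxide synthase, the enzyme that makes nitric oxide in endothelial cells.

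RNA of left ventricles (LV) and right ventricles (RV) of mouse embryos at 14.5 days post coitum was hybridised to 12 Affymetrix arrays. Wild-type embryos (WT) were of the CD1 strain. Knockout embryos (KO) were Nos3-/-, with the targeted allele Nos3tm1unc in all cells on the B6.129P2 background (B6.129P2-Nos3tm1unc/J). The 4 groups, WT LV, WT RV, KO LV and KO RV, held 3 arrays each, and every array carried tissue pooled from 15 to 30 embryos. All KO pools also differ from all WT pools in strain, so the allele and the strain cannot be told apart in any KO minus WT difference. The labels do not say whether the left and right pools of one number came from the same hearts, and the p-values measure the spread between pools. The number of arrays, 3 a group, limits the precision.

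Nos3 itself was lower in KO, by -0.41 in LV (SE 0.14, limma adjusted p = 0.0376) and by -0.66 in RV (SE 0.14, limma adjusted p = 0.00983). Its values were 8.30 to 8.39 in WT LV, 8.37 to 8.94 in WT RV, 7.86 to 8.02 in KO LV and 7.77 to 8.23 in KO RV, so most of the signal remained in KO. Whether its probe set lies in the targeted part of the gene is not given in the sources used here, so this is a weak check of the labels. All 8 cardiomyocyte markers checked lay above the median of all values, and their average ran from 13.01 to 13.79 over the arrays. The 24 probe sets for poly-A controls, bacterial RNAs added to the sample during labelling, set 4 arrays apart. These controls averaged 8.89, 8.90 and 8.94 in WT LV, and 8.05, 8.13 and 8.96 in WT RV. They averaged 8.06, 8.26 and 8.47 in KO LV, and 7.35, 7.90 and 8.37 in KO RV. The 3 WT LV arrays and WT RV replicate 3 were thus high and the other 8 arrays low, so WT RV is the only group with both kinds. The average of the 18 probe sets for hybridisation controls was also highest on these 4 arrays, at 11.56 to 11.70, and reached 11.52 at most on the other 8. Bulk tissue was measured, so fewer cells of a type and less RNA per cell cannot be told apart.

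In the left ventricle, collagen genes of several classes were higher in KO. The called genes were 14 of 42 higher and 2 of 42 lower, where 18.6% of all genes were called higher and 12.3% lower. The median difference of the 42 genes was 0.21, beside -0.01 over all genes. By class, the genes called higher were 4 of 6 basement membrane chains, 4 of 11 fibrillar chains, 2 of 9 FACIT chains, 2 of 4 transmembrane chains, 1 of 2 multiplexins and 1 of 5 beaded filament chains. Both genes called lower, Col8a1 and Col20a1, were of the short-chain network and FACIT classes. The 26 collagen genes without a call in LV included Col3a1 and Col1a2, described below.

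**Figure D1:**
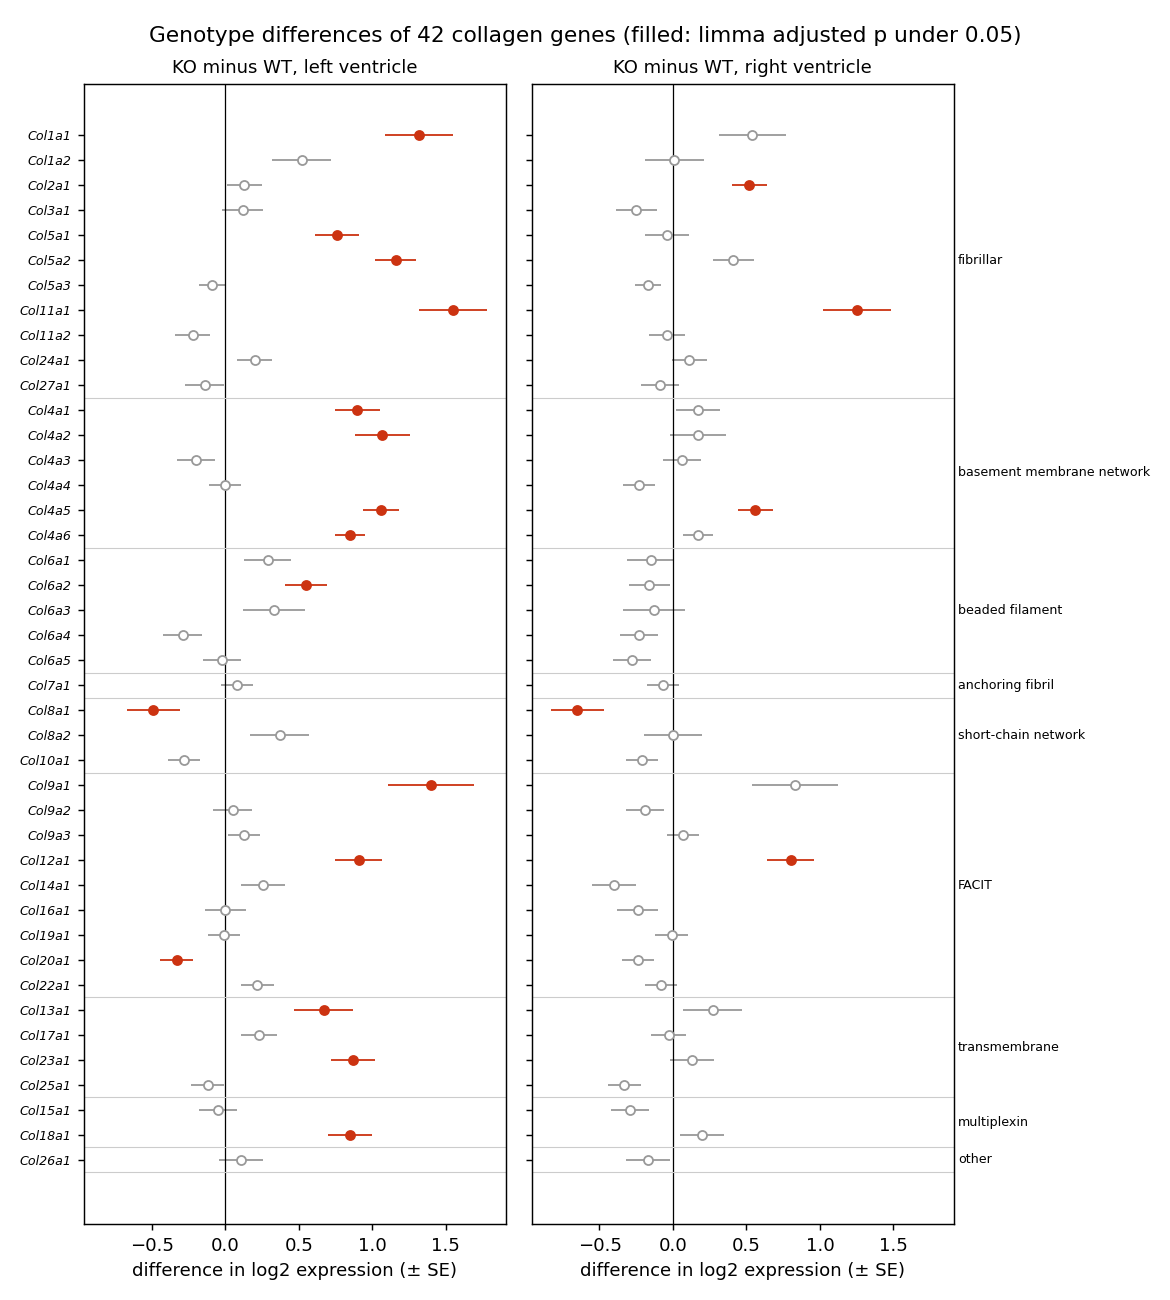
KO minus WT difference in log2 expression of the 42 collagen genes in LV and in RV, by class, with horizontal bars of 1 SE and filled points for limma adjusted p under 0.05. In LV 14 genes were called higher and 2 lower, and in RV 4 were called higher and 1 lower.

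Type IV collagen was the class with the largest share of its genes called in LV. The chains alpha-1 and alpha-2, from Col4a1 and Col4a2, build the sheet common to all basement membranes, and the alpha-5 and alpha-6 chains, from Col4a5 and Col4a6, are used in fewer tissues. In each of these pairs the genes lie next to each other on opposite strands and are read away from each other, Col4a1 and Col4a2 on chromosome 8 and Col4a5 and Col4a6 on chromosome X. The upstream sequence is shown because the members of each pair lie head to head and both members of each were higher in LV. Whether this layout bears on the rise was not tested. Each window runs from 250 bases before to 50 bases after the start of the gene in RefSeq (GRCm38.p6), 5′ to 3′ on the gene's own strand. The windows are chr8:11312777-11313076 (minus strand) for Col4a1, chr8:11312555-11312854 (plus strand) for Col4a2, chrX:141475169-141475468 (plus strand) for Col4a5 and chrX:141474027-141474326 (minus strand) for Col4a6. Capitals mark the GC box GGGCGG and the CCAAT box CCAAT, each on either strand, and no marked match overlaps another.
Col4a1: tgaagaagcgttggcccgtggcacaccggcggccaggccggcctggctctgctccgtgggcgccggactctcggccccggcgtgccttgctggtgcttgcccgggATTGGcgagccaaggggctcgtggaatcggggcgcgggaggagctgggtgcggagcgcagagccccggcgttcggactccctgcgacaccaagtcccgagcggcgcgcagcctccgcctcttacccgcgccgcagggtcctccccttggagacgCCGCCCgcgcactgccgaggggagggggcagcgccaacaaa
Col4a2: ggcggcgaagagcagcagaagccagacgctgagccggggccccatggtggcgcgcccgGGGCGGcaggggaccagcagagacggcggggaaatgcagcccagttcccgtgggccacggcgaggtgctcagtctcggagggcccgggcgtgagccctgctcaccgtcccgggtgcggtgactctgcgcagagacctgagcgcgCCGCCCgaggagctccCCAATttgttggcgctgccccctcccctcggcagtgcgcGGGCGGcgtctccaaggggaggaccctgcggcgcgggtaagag
Col4a5: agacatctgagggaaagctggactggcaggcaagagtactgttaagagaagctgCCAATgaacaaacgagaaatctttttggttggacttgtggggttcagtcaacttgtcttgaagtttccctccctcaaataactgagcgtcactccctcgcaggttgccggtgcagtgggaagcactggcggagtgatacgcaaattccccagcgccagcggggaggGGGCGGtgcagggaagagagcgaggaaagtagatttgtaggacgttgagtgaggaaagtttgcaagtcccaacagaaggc
Col4a6: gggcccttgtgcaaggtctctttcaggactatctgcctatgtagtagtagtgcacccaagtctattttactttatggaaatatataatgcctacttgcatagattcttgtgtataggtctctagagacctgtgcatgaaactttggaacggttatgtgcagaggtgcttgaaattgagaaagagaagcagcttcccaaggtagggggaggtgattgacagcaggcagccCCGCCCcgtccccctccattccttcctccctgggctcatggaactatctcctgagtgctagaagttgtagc
The windows of Col4a1 and Col4a2 share 78 bases. Their starts are 21 bases apart, and the 5′ ends of these genes overlap. The GC box occurred 3 times in the Col4a2 window and 1 time in each of the other 3, and the CCAAT box 1 time in each window except that of Col4a6. The GC box of Col4a1 and the last one of Col4a2 are the same site in the shared bases, counted for each gene. Among all RefSeq windows of this length, 35.6% of 32817 held a GC box, against 22 of 36 windows of collagen genes (61.1%). A CCAAT box was held by 37.4% of all windows and by 13 of the 36, and TATAAA, searched on both strands, by 13.6% of all and by 5 of the 36. The 36 windows belong to 33 of the 42 genes.

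Col4a1 values were 12.00, 11.73 and 12.16 in WT LV, 12.68, 12.85 and 12.16 in WT RV, 12.75, 12.90 and 12.95 in KO LV, and 12.67, 12.83 and 12.70 in KO RV. Col4a2 values were 10.29, 9.80 and 10.32 in WT LV, 10.94, 11.20 and 10.31 in WT RV, 11.04, 11.26 and 11.32 in KO LV, and 10.94, 11.08 and 10.93 in KO RV. For both genes the 3 WT LV arrays and WT RV replicate 3 were the 4 lowest, and the other 8 arrays lay above all 4. The LV difference was 0.90 for Col4a1 (SE 0.15, limma adjusted p = 0.000925) and 1.07 for Col4a2 (SE 0.19, limma adjusted p = 0.00119).

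Col4a5 took a different course over the arrays from Col4a1 and Col4a2. It measured 10.11, 9.84 and 9.80 in WT LV, 9.99, 10.25 and 10.20 in WT RV, 11.07, 10.76 and 11.09 in KO LV, and 10.66, 10.67 and 10.80 in KO RV. All 6 KO arrays lay above all 6 WT arrays, and WT RV replicate 3 lay within the range of the other WT RV arrays. The LV mean was 9.92 ± 0.17 in WT and 10.97 ± 0.19 in KO (SD, n = 3 arrays a group), which differ by 1.06 (SE 0.12, limma adjusted p = 4.8e-05). The RV mean was 10.15 ± 0.14 in WT and 10.71 ± 0.08 in KO, which differ by 0.56 (SE 0.12, limma adjusted p = 0.00936). Col4a6 read 6.75, 6.79 and 6.75 in WT LV, 7.20, 7.27 and 6.90 in WT RV, 7.71, 7.48 and 7.66 in KO LV, and 7.25, 7.25 and 7.39 in KO RV. Its 4 lowest values came from the same 4 arrays as those of Col4a1, and the LV difference was 0.85 (SE 0.10, limma adjusted p = 9.4e-05). Col4a3 and Col4a4, which supply the chains best known from kidney and lung, had no call in any comparison. They too adjoin each other, with overlapping ends on chromosome 1, and differed by -0.20 and 0.00 in LV.

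**Figure D2:**
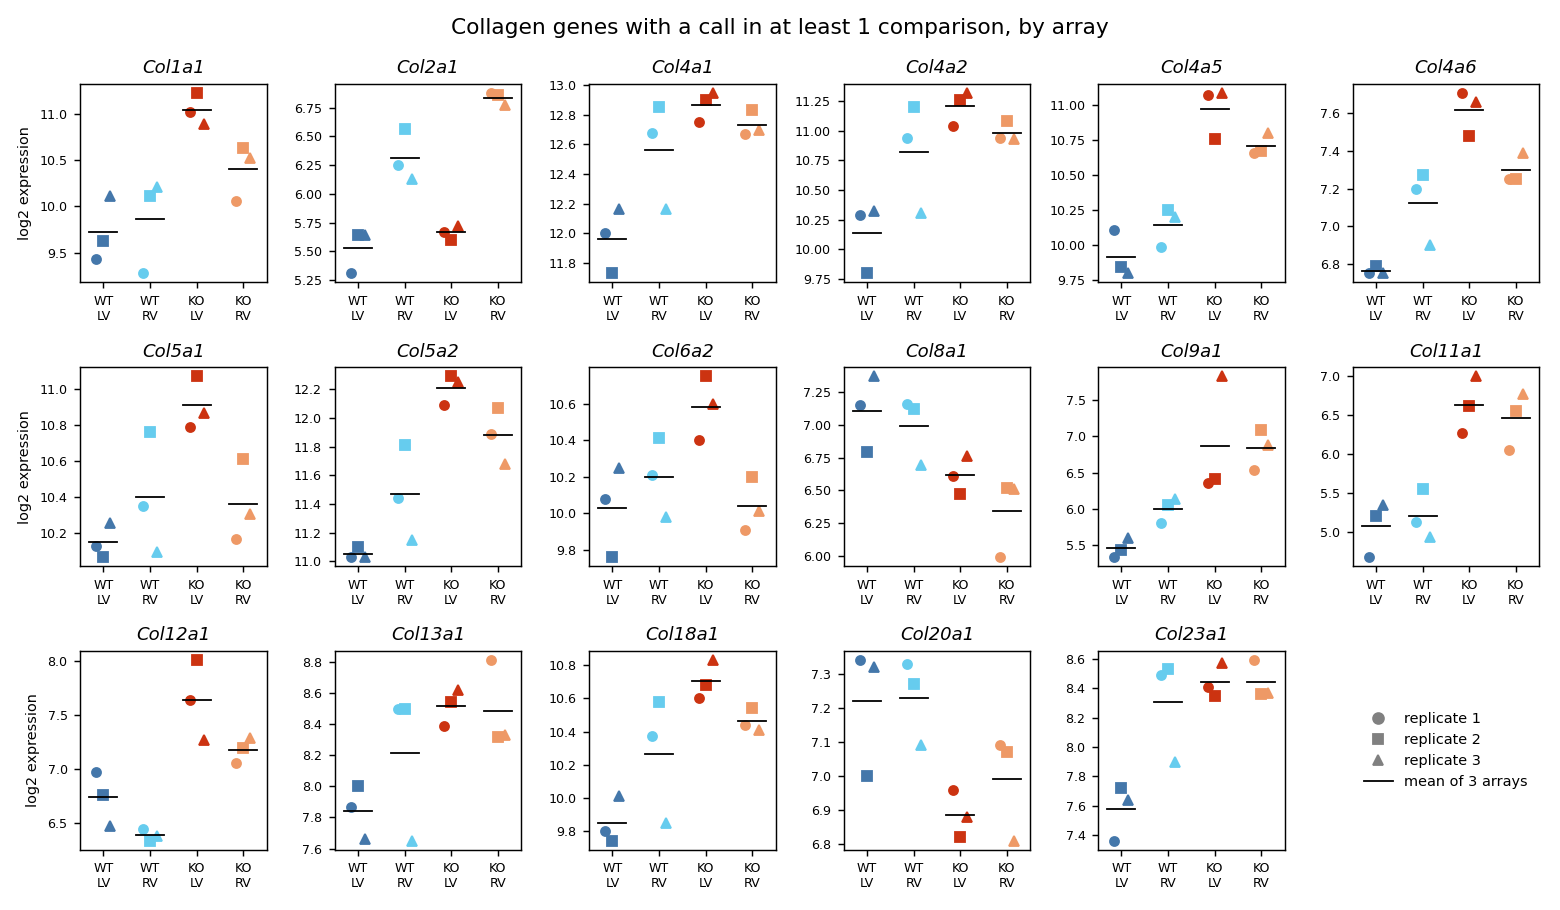
Log2 expression of the 17 collagen genes called in at least 1 comparison, 1 panel a gene, with a point for each array and a line at the mean of the 3 arrays of a group. In the Col4a5 panel all 6 KO points lie above all 6 WT points, while in the Col4a1 panel the 3 WT LV points and 1 WT RV point lie below the rest.

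Among the fibrillar chains, Col1a1 was called higher in KO LV and its partner Col1a2 was not. Col1a1 supplies the larger share of chains of type I collagen, the main collagen of most connective tissue, and Col1a2 the rest. Col1a1 measured 9.43, 9.63 and 10.11 in WT LV, 9.28, 10.11 and 10.21 in WT RV, 11.02, 11.23 and 10.89 in KO LV, and 10.06, 10.63 and 10.52 in KO RV. The 3 KO LV arrays lay above all 9 others, and the RV groups overlapped. The LV difference was 1.32 (SE 0.23, limma adjusted p = 0.00109), and in RV it was 0.54 (SE 0.23, limma adjusted p = 0.164).

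Col1a2 values were 12.64, 12.95 and 13.36 in WT LV, 12.54, 13.24 and 13.11 in WT RV, 13.39, 13.60 and 13.52 in KO LV, and 12.65, 13.23 and 13.04 in KO RV. Here too the KO LV arrays were above every other array, but WT LV replicate 3 came within 0.03 of the lowest of them, and the difference of 0.52 was not called (limma adjusted p = 0.0653). Col3a1, the gene of type III collagen, which mixes with type I in soft tissue, was at 13.18, 13.24 and 13.52 in WT LV, 13.04, 13.38 and 13.36 in WT RV, 13.32, 13.51 and 13.47 in KO LV, and 12.71, 13.23 and 13.09 in KO RV. Its groups overlapped in both ventricles, with an LV difference of 0.12 (limma adjusted p = 0.557).

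The chains of types V and XI, which sit inside the fibril and limit its thickness, were higher in KO LV for 3 genes. Col5a1 measured 10.13, 10.07 and 10.26 in WT LV, 10.35, 10.76 and 10.10 in WT RV, 10.79, 11.07 and 10.87 in KO LV, and 10.17, 10.61 and 10.31 in KO RV. Col5a2 measured 11.03, 11.10 and 11.03 in WT LV, 11.44, 11.81 and 11.15 in WT RV, 12.09, 12.29 and 12.25 in KO LV, and 11.89, 12.07 and 11.68 in KO RV. In LV the groups of both genes were well apart, with a difference of 0.76 for Col5a1 (SE 0.15, limma adjusted p = 0.00257) and of 1.16 for Col5a2 (SE 0.14, limma adjusted p = 0.00011). Col5a2 was lowest on the 4 arrays with high poly-A controls, whereas Col5a1 in KO RV reached down to the WT LV values.

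Col11a1, best known from cartilage, had the largest LV and RV differences of the 42 genes. Its values were 4.68, 5.20 and 5.35 in WT LV, 5.13, 5.55 and 4.94 in WT RV, 6.27, 6.62 and 7.0 in KO LV, and 6.06, 6.55 and 6.77 in KO RV. Every KO array lay above every WT array. The LV difference was 1.55 (SE 0.23, limma adjusted p = 0.000355) and the RV difference 1.25 (SE 0.23, limma adjusted p = 0.00447). Its other probe set gave 0.98 in LV and 0.55 in RV, with limma adjusted p of 0.000815 and 0.0493 when each probe set was tested on its own.

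Of the FACIT chains, Col12a1 and Col9a1 were higher in KO LV. Col12a1, whose product binds type I fibrils in tissue under tension, read 6.97, 6.76 and 6.47 in WT LV, 6.44, 6.33 and 6.37 in WT RV, 7.64, 8.01 and 7.27 in KO LV, and 7.05, 7.19 and 7.29 in KO RV. All 6 KO arrays were above all 6 WT arrays, by 0.91 on average in LV (SE 0.16, limma adjusted p = 0.00119) and by 0.80 in RV (SE 0.16, limma adjusted p = 0.00854). A further Col12a1 probe set, with a mean of 6.05, differed by -0.09 in LV and -0.11 in RV and had no call, so the rise rests on 1 of its probe sets. With the mean of its probe sets, Col12a1 was called in neither ventricle, with differences of 0.21 and 0.20.

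Col9a1, a chain of the FACIT of cartilage fibrils, measured 5.34, 5.43 and 5.60 in WT LV, 5.81, 6.06 and 6.13 in WT RV, 6.35, 6.41 and 7.82 in KO LV, and 6.53, 7.09 and 6.88 in KO RV. KO LV replicate 3 stood far above the other KO LV arrays. The LV difference was 1.40 (SE 0.29, limma adjusted p = 0.00294), and 0.92 without that array, still called. Its other, dimmer probe set differed by -0.11. Of 6 cartilage markers checked beside these cartilage chains, 2 were above the median of all values. The average of the 6 ran from 4.89 to 5.02 in WT LV, 4.90 to 5.10 in WT RV, 5.27 to 5.61 in KO LV and 5.25 to 5.46 in KO RV, and its part in these differences was not tested. One of the 6, Hapln1, which links proteoglycan to hyaluronan and was singled out after its values were seen, was higher in KO by 2.03 in LV and 1.56 in RV (limma adjusted p of 5.4e-05 and 0.000913). The other 5 had no call. In LV, Cnmd and Sox9 differed by 0.51 and 0.31 (limma adjusted p of 0.091 and 0.0855). Acan, Matn1 and Matn3 differed by -0.03, -0.06 and -0.20 in LV, so the rise of the average rests largely on Hapln1. The median difference of the 6 was 0.14 in LV.

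Of the 4 transmembrane chains and 2 multiplexins, Col13a1, Col23a1 and Col18a1 were lowest on the same 4 arrays as Col4a1, and Col17a1, Col25a1 and Col15a1 were not. Col13a1 and Col23a1 encode transmembrane collagens, and Col18a1 encodes a multiplexin of basement membranes whose end fragment is endostatin. Col18a1 read 9.80, 9.74 and 10.01 in WT LV, 10.37, 10.58 and 9.85 in WT RV, 10.60, 10.68 and 10.83 in KO LV, and 10.44, 10.54 and 10.41 in KO RV. Col23a1 read 7.36, 7.72 and 7.64 in WT LV, 8.49, 8.53 and 7.90 in WT RV, 8.41, 8.35 and 8.57 in KO LV, and 8.59, 8.36 and 8.37 in KO RV. Col13a1 read 7.87, 8.0 and 7.66 in WT LV, 8.50, 8.50 and 7.65 in WT RV, 8.39, 8.54 and 8.62 in KO LV, and 8.81, 8.32 and 8.33 in KO RV. In all 3 genes the 3 WT LV arrays and WT RV replicate 3 were below the other 8 arrays, and the remaining WT RV arrays lay among the KO arrays or within 0.04 of their lowest. The LV differences were 0.85 for Col18a1 (SE 0.15, limma adjusted p = 0.00108), 0.87 for Col23a1 (SE 0.15, limma adjusted p = 0.00109) and 0.67 for Col13a1 (SE 0.20, limma adjusted p = 0.0209). The Col13a1 call was lost without WT LV replicate 3, KO LV replicate 2 or KO LV replicate 3, with differences from 0.58 to 0.75 over the 12 fits that left out 1 array.

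The beaded filament chain Col6a2 measured 10.08, 9.76 and 10.25 in WT LV, 10.21, 10.41 and 9.98 in WT RV, 10.40, 10.75 and 10.60 in KO LV, and 9.91, 10.20 and 10.01 in KO RV. Its LV groups did not overlap and differed by 0.55 (SE 0.14, limma adjusted p = 0.0103), a call lost without WT LV replicate 2, when the difference was 0.42. Its neighbour and partner in type VI collagen, Col6a1, had no call.

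The genes called lower were few. Col8a1, a short-chain collagen of vessel walls, read 7.15, 6.79 and 7.37 in WT LV, 7.16, 7.12 and 6.69 in WT RV, 6.61, 6.47 and 6.76 in KO LV, and 5.99, 6.52 and 6.51 in KO RV. Each KO group lay below its WT group, by -0.49 in LV (SE 0.18, limma adjusted p = 0.0479) and -0.65 in RV (SE 0.18, limma adjusted p = 0.0365). Both calls lay near the threshold: the LV call was kept in 4 and the RV call in 7 of 12 fits that left out 1 array. Col20a1 measured 7.34, 7.0 and 7.32 in WT LV and 6.96, 6.82 and 6.88 in KO LV, a difference of -0.33 (SE 0.11, limma adjusted p = 0.0379) that was kept in 7 of those 12 fits. Leaving out any 1 of WT LV replicates 1 and 3 or the 3 KO LV arrays ended the LV calls of both genes, and so did leaving out WT RV replicate 2 or KO RV replicates 2 or 3 for Col8a1. Its RV call ended without WT RV replicates 1 or 2, KO LV replicate 1 or KO RV replicates 1 or 3. Over the 12 fits the differences ranged from -0.65 to -0.36 for Col8a1 in LV, -0.80 to -0.48 for Col8a1 in RV and -0.44 to -0.27 for Col20a1 in LV.

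In the right ventricle fewer collagen genes differed by genotype. The calls were 4 of 42 higher, namely Col2a1, Col4a5, Col11a1 and Col12a1, and 1 of 42 lower, Col8a1, where 4.61% of all genes were called higher and 3.58% lower. The median difference was -0.04, the same as over all genes. Col4a5, Col8a1, Col11a1 and Col12a1 were called in both ventricles in the same direction, while 12 genes were called in LV only. The shares of all genes with these patterns were not counted, and over all genes too more calls were made in LV than in RV. Col2a1, the main chain of cartilage fibrils, rose by 0.52 in RV (SE 0.12, limma adjusted p = 0.0151), and this call was lost without WT RV replicate 3 (0.43, limma adjusted p = 0.0579), KO RV replicate 1 or KO RV replicate 2, and with the poly-A control level as a term (0.44, limma adjusted p = 0.0828). With the replicate number as a block, a pairing the labels do not give, 6 genes were called higher in RV, where 5.85% of all genes were. The added calls were Col5a2 at 0.41 and Col9a1 at 0.83, whose limma adjusted p was 0.038 and 0.0429 with the block and 0.0894 and 0.0921 without it. Without WT RV replicate 3 the counts were 3 higher and 1 lower, beside 3.06% and 2.26% of all genes.

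Whether the genotype difference itself changed between ventricles was tested by the interaction term, which is the RV difference minus the LV difference. No collagen gene was called in either direction, where 0% of all genes were called higher and 0.022% lower. At an unadjusted p under 0.05, 1 collagen gene was higher and 11 were lower, as were 871 and 1666 of all 18194 genes. The term was negative for 35 of 42 genes and for 11031 of all genes, with a median of -0.27 beside -0.06 over all genes. One array changed this count. Without WT RV replicate 3, limma called 8 collagen genes lower and 0 higher, beside 4.45% and 2.74% of all genes. These were Col4a1, Col4a2, Col4a6, Col5a1, Col5a2, Col6a2, Col18a1 and Col23a1, with interaction terms from -0.79 to -1.16. In that fit all WT LV arrays had high poly-A controls and all WT RV arrays low ones. Ventricle and control level therefore cannot be told apart in WT there, nor in this interaction.

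The arrays with high poly-A controls coincided with a group of these genes. For Col4a1, Col4a2, Col4a6, Col5a2, Col13a1, Col18a1 and Col23a1, all 4 high-control arrays lay below all 8 low-control arrays, which held for 7 of 42 collagen genes and for 10.1% of all genes. All 7 were among the 14 genes called higher in KO LV, which the definition nearly fixes, since the WT LV arrays are high-control and the KO LV arrays low-control. WT RV replicate 3 was below both other WT RV arrays in 10 of those 14 genes, in 17 of all 42 and in 37.4% of all genes. The other 7 genes of the 14, Col1a1, Col4a5, Col5a1, Col6a2, Col9a1, Col11a1 and Col12a1, did not separate the arrays in this way.

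**Figure D3:**
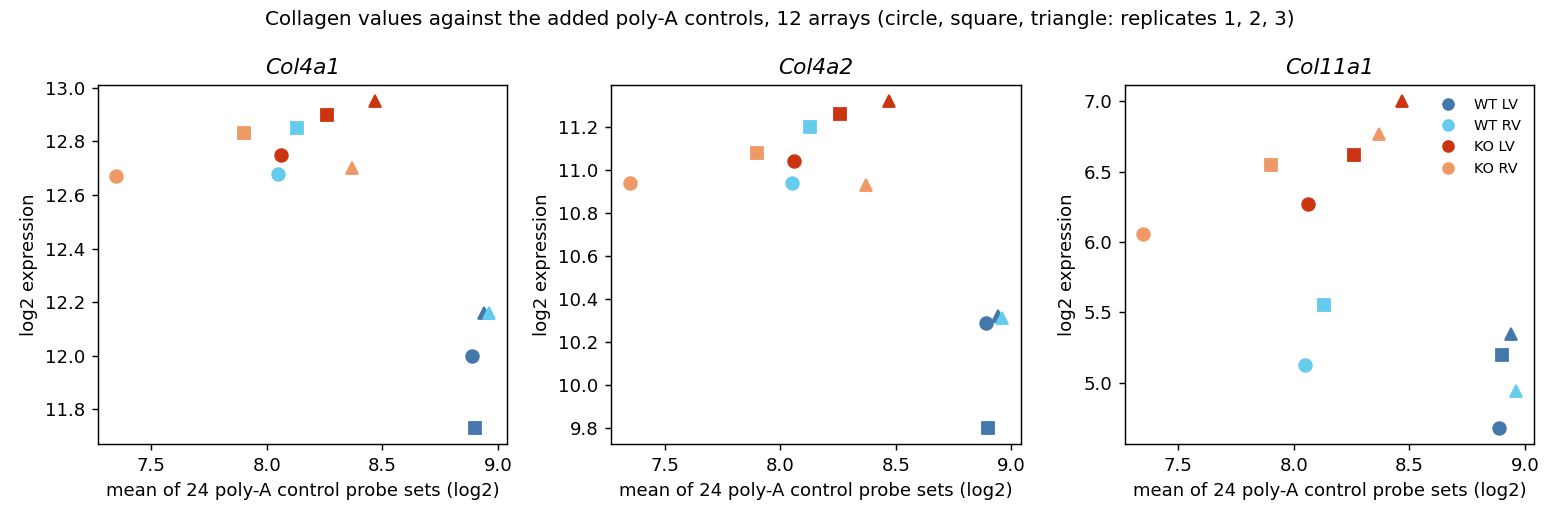
Log2 expression of Col4a1, Col4a2 and Col11a1 on each of the 12 arrays (vertical) against the mean log2 value of the 24 poly-A control probe sets (horizontal), coloured by group. Col4a1 and Col4a2 are lowest on the 4 arrays with controls of 8.89 or more, while Col11a1 is higher on the 6 KO arrays.

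The level of the controls was then put into the model in 2 ways. With their mean as a continuous term, 14 collagen genes were still called higher in KO LV and 1 lower, beside 9.74% and 4.31% of all genes. Col6a2 and Col13a1 lost their call, and Col1a2 and Col8a2 gained one. With an indicator for the 4 high-control arrays, a term chosen after seeing the data, 1 collagen gene was called higher and 0 lower, beside 0.737% and 0.346% of all genes. That gene was Col4a5, at 1.14 (SE 0.21, limma adjusted p = 0.0213). This indicator is estimated only from WT RV, as replicate 3 against replicates 1 and 2, so its errors are wide.

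Under the indicator the differences of the called genes ran from 1.84 to -0.18 among those called higher without it. Col1a1 stood at 1.84 (SE 0.40, limma adjusted p = 0.0504), Col9a1 at 1.60, Col11a1 at 1.15 (limma adjusted p = 0.23) and Col12a1 at 0.89 (limma adjusted p = 0.204). Col4a1 stood at 0.30 (limma adjusted p = 0.593), Col4a2 at 0.31 (limma adjusted p = 0.663), Col18a1 at 0.23, Col23a1 at 0.26 and Col13a1 at -0.18 (limma adjusted p = 0.828). Between these lay Col5a2 at 0.68 (limma adjusted p = 0.162) and Col4a6 at 0.52 (limma adjusted p = 0.131). Col5a1 at 0.30 (limma adjusted p = 0.664) and Col6a2 at 0.22 (limma adjusted p = 0.771) were as low as Col4a1, although they are not among the 7 genes that separated the arrays. Because all WT LV arrays were high and all KO arrays low, control level and genotype cannot be told apart within LV.

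**Figure D4:**
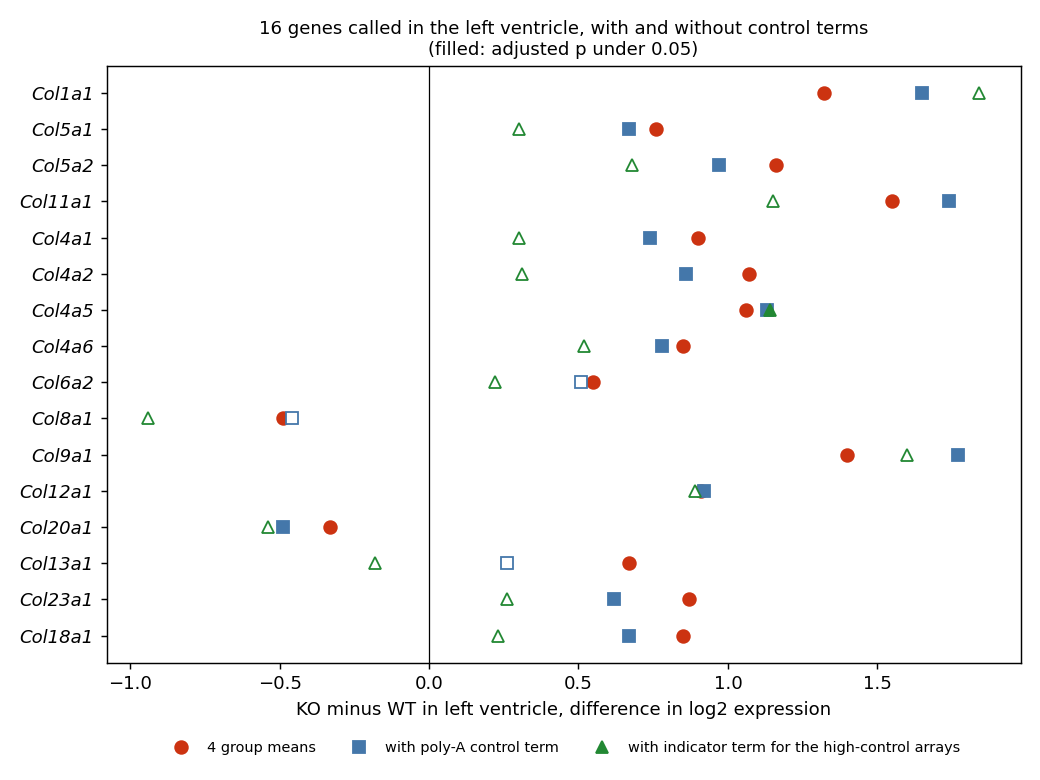
KO minus WT difference in LV, in log2 expression, of the 16 collagen genes called there, from the 4 group means (circles), with the poly-A control mean as a term (squares) and with an indicator for the high-control arrays (triangles), filled where limma adjusted p was under 0.05. Col4a5 stays near 1.06 to 1.14 in all 3 fits, while Col4a1 moves from 0.90 to 0.30.

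Marker averages of other cell types also differed between the arrays, and their part in the collagen differences was not tested. The cardiomyocyte average was 13.01 to 13.14 in WT LV, 13.19 to 13.53 in WT RV, 13.41 to 13.70 in KO LV and 13.61 to 13.79 in KO RV. The average of 6 mesenchyme and fibroblast markers ran from 10.07 to 10.38 in WT LV, 9.70 to 10.08 in WT RV, 9.74 to 10.14 in KO LV and 9.17 to 9.76 in KO RV. That of 5 endothelial markers ran from 8.22 to 8.70, 8.47 to 8.89, 8.97 to 9.26 and 8.86 to 9.07 in the same order. The 4 leukocyte markers averaged 6.99 to 7.26, 6.96 to 7.24, 8.11 to 8.42 and 7.50 to 7.77, again in that order. The 4 liver markers averaged 7.52 to 9.46, 7.89 to 10.46, 6.03 to 7.31 and 7.13 to 8.34. Averages of 6 epicardial markers were 8.26 to 8.83, 7.94 to 8.64, 8.44 to 8.82 and 8.21 to 8.61. Those of 3 endocardial markers were 8.36 to 8.67, 8.39 to 8.80, 8.77 to 8.82 and 8.53 to 8.68, with 2 called higher and 1 lower in LV. The fibroblast averages of KO LV and WT LV thus overlapped, with called members in both directions (1 of 6 higher and 2 lower in LV). The epicardial averages overlapped too. Cardiomyocyte, endothelial, endocardial and leukocyte averages were higher on every KO LV array than on any WT LV array. The cardiomyocyte and endothelial averages were also lower on all 4 high-control arrays than on all the others. WT RV replicate 3 had 13.19 and 8.47, and WT RV replicates 1 and 2 had 13.51 and 13.53 for cardiomyocytes and 8.78 and 8.89 for endothelium. The endocardial and leukocyte averages did not separate the arrays in this way. The average of 4 nuclear RNAs, which varies with RNA preparation, ran from 10.02 to 11.26 in WT LV, 9.91 to 10.30 in WT RV, 8.64 to 10.30 in KO LV and 9.83 to 10.21 in KO RV, and 2 of the 4 were called lower in KO LV.

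Between the ventricles, Col2a1 was the collagen gene that differed in both genotypes. Its values were 5.31, 5.64 and 5.64 in WT LV, 6.25, 6.56 and 6.13 in WT RV, 5.67, 5.60 and 5.72 in KO LV, and 6.88, 6.86 and 6.77 in KO RV. Every RV array lay above every LV array. The RV minus LV difference was 0.78 in WT (SE 0.12, limma adjusted p = 0.00574) and 1.17 in KO (SE 0.12, limma adjusted p = 0.000111), and both calls were kept in all 12 fits that left out 1 array. The WT call was lost with only the 2 groups compared and with the indicator for high-control arrays (0.60, limma adjusted p = 0.16). The gene has 1 probe set.

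In WT, 2 of 42 collagen genes were called higher in RV, Col2a1 and Col23a1, and 0 lower, where 0.764% of all genes were called higher and 0.22% lower. At an unadjusted p under 0.05, 9 were higher and 2 lower, as were 2167 and 938 of all 18194 genes. Col23a1 differed by 0.73 (SE 0.15, limma adjusted p = 0.0377), and this call was kept only without WT LV replicate 3, WT RV replicate 3 or KO LV replicate 3 among the 12 fits that left out 1 array, with differences from 0.62 to 0.94. Without WT RV replicate 3, 8 collagen genes were called higher in WT RV and 0 lower, beside 6.43% and 3.11% of all genes. These were Col2a1, Col4a1, Col4a2, Col4a6, Col5a2, Col13a1, Col18a1 and Col23a1, with differences from 0.47 to 0.94. Without that array all WT LV arrays had high poly-A controls and all WT RV arrays low ones, so ventricle and control level cannot be told apart in these calls.

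In KO, Col2a1 was the 1 gene called higher in RV and 0 were called lower, beside 0.55% and 0.594% of all genes. At an unadjusted p under 0.05, 14 of 42 were lower, as were 1050 of all 18194 genes. The median difference was -0.15, beside -0.00 over all genes, and 33 of the 42 differences were negative, as were 9308 of all 18194. The labels do not pair the arrays. With the replicate number as a block all the same, limma called 3 genes lower in KO RV, where 0.874% of all genes were called lower. They were Col8a2, the partner chain of Col8a1, at -0.71 (adjusted p = 0.00317), Col14a1, a FACIT chain, at -0.58 (adjusted p = 0.038) and Col26a1 at -0.61 (adjusted p = 0.00313).

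**Figure D5:**
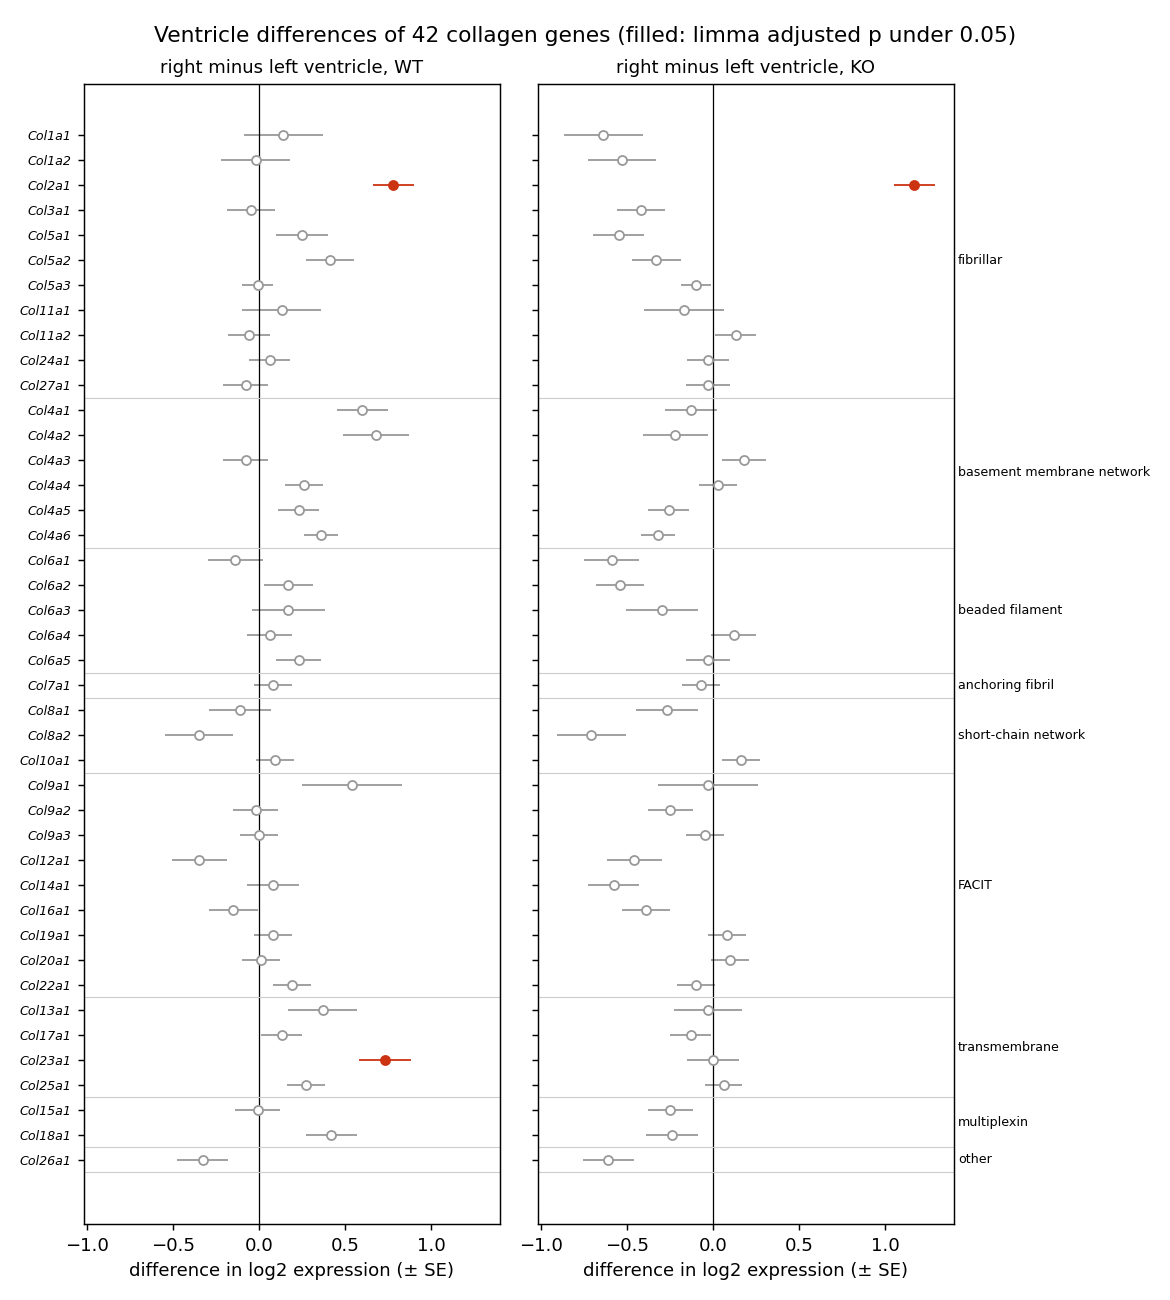
RV minus LV difference in log2 expression of the 42 collagen genes in WT and in KO, by class, with horizontal bars of 1 SE and filled points for limma adjusted p under 0.05. Col2a1 is filled in both panels, at 0.78 and 1.17, and Col23a1 in the WT panel, at 0.73.

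Further probe sets were compared for the called genes. Of the 14 genes called higher in KO LV, 11 had further probe sets whose mean exceeded that median of 5.67, 13 such probe sets in all, of which 12 differed in the same direction and 10 were called when tested on their own. For the 4 genes called higher in KO RV there were 3 such probe sets, of which 2 differed in the same direction and 1 was called. Col25a1, a transmembrane collagen, showed the opposite case. The probe set used for it differed by -0.12 in LV and -0.33 in RV with no call, while its other probe set was higher by 1.35 in LV and 0.94 in RV (limma adjusted p of 0.000305 and 0.00797). The second Col1a2 probe set, at 0.75 in LV (limma adjusted p = 0.0245), was called although the one used was not.

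Genes that act with collagens were examined as 8 lists holding 121 measured genes, of which 45 were called higher and 6 lower in KO LV and 9 higher and 3 lower in KO RV. Over all genes the shares were those given above, 18.6% and 12.3% in LV and 4.61% and 3.58% in RV, against which each list's count is to be read. The median difference was 0.20 in LV and 0.07 in RV. With the indicator for the high-control arrays, 0 were higher and 1 lower in LV, and with the continuous poly-A term 35 were higher and 3 lower. The LV counts below are therefore subject to the same arrays as those of the collagen genes.

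For chain modification and folding, 4 of 19 genes were higher and 2 lower in KO LV, with 1 higher in RV, shares near those over all genes. Serpinh1, the collagen chaperone Hsp47, rose by 0.71 in LV (SE 0.15, limma adjusted p = 0.00323) and by 0.74 in RV (SE 0.15, limma adjusted p = 0.00884). P3h2, a prolyl 3-hydroxylase, rose by 0.80 in LV, and Colgalt2, which adds galactose to hydroxylysine, by 0.68. The genes called lower were Ppib, a prolyl isomerase, at -0.32 and P4hb, a subunit of prolyl 4-hydroxylase, at -0.27. For secretion and propeptide processing, 5 of 13 genes were higher and 1 lower in LV and 0 were called in RV. Those higher included Furin, a protease that activates propeptidases, at 1.02 and Adamts3, a procollagen N-proteinase, at 0.65. Of the secretory vesicle coat, Sec24d was higher at 0.68 and Sec13 was lower at -0.48. For crosslinking, 2 of 5 genes were higher in LV and 0 were called in RV, namely Tgm2, a transglutaminase, at 0.69 and Loxl1, a lysyl oxidase, at 0.55.

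Of 11 collagen receptors, 5 were higher in KO LV and 1 in RV, and 0 were lower. Adgrg6, an adhesion receptor that binds type IV collagen, was higher by 1.21 in LV (SE 0.18, limma adjusted p = 0.000385) and by 0.73 in RV (SE 0.18, limma adjusted p = 0.0231). Ddr1, a receptor tyrosine kinase for collagen, was higher by 0.74 in LV. Of 17 genes of collagen breakdown, 4 were higher and 1 lower in LV, also near the share over all genes for higher calls, and 2 higher and 1 lower in RV. Mmp14, the membrane-bound collagenase, was higher by 0.95 in LV, whereas Fap, a protease of activated fibroblasts, was lower by -1.28. In RV Timp3, an inhibitor of metalloproteinases, was lower by -0.80 (SE 0.15, limma adjusted p = 0.00508).

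Of 19 partners of collagen in basement membranes, 7 were higher and 0 lower in KO LV, and 1 higher and 1 lower in RV. The laminin chain Lamc1 rose by 1.15 (SE 0.16, limma adjusted p = 0.000269), and Nid1 and Nid2, the nidogens that link laminin to type IV collagen, rose by 1.09 and 0.81. In RV Nid2 rose by 0.58 and the laminin chain Lamb3 fell by 0.52. Of 19 partners of fibrils, 6 were higher and 1 lower in LV, and 2 higher and 0 lower in RV. Those higher in LV included the matrix proteins Thbs1 at 1.14, Comp at 1.10 and Tnc at 0.96, while lumican, Lum, was lower at -0.52. Of 19 upstream signals and factors, 12 were higher and 1 lower in LV, and 2 higher and 1 lower in RV. The transcription factor Foxc2 was higher by 1.47 in LV (SE 0.16, limma adjusted p = 4.3e-05) and 0.77 in RV (SE 0.16, limma adjusted p = 0.00936), and Smad2, a mediator of TGF-beta signals, was lower by -0.57 and -1.16. Smad2 was the only gene of this list called lower in either ventricle. The other TGF-beta genes of the list, Tgfb1, Tgfb2, Tgfb3, Tgfbr1, Tgfbr2, Smad3 and Smad7, were among the 12 called higher in LV.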

How the data were processed

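The authors deposited log2 values for 45101 probe sets and 12 arrays, made with RMA, per the submitters' processing notes; labelling used 100 ng of RNA, per the labels' protocols. Values ran from 2.42 to 15.19. RMA brings the arrays close to a common distribution, so a change in most genes at once could be hidden. The array medians still ran from 5.57 to 5.74, and every WT LV median lay above every KO LV median. Centring the arrays on their medians moved the LV calls over all genes from 3378 higher and 2239 lower to 4282 higher and 1212 lower. The genome build is not given in the sources used here, and 0 columns were left unused. Depth has no meaning for arrays.

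Probe sets with 1 symbol (34958, beside 932 with several and 9211 with none) named genes, and the one with the highest mean over all arrays was used, giving 18194 genes. Groups came from the titles. limma (lmFit and eBayes) fitted 4 group means, with Benjamini-Hochberg adjustment over all genes and a threshold of 0.05, for 5 comparisons: KO minus WT in each ventricle, their interaction, and RV minus LV in each genotype. The fit was tested on simulated data. Members with a call, with Col1a1, Col1a2, Col3a1, Col4a1 and Col4a2, could be given on every array, and of each partner list up to 3 called genes in each direction by size. The TGF-beta genes called higher in LV were named beside Smad2 outside this rule. The members, lists, markers and this rule were chosen with earlier results of these data known. All 42 symbols matched a RefSeq gene table of GRCm38.p6, and upstream windows were found for 33 of them. Deviations of same-numbered arrays had correlations of 0.21, 0.291 and 0.265 for KO LV with KO RV. For WT RV with KO RV they were 0.111, 0.262 and 0.306. For WT LV they were 0.231, -0.008 and 0.145 with WT RV, and 0.011, 0.144 and 0.423 with KO LV. These correlations were not tested. The replicate number was tried as a block over all arrays, WT LV included. The labels give no pairing, and WT and KO pools are of different embryos. Calls made only with this block therefore rest on an assumed pairing. Other alternatives were a filter on dim genes, other centring, quantile normalization once more, array weights, robust variances with an intensity trend, other probe sets, a threshold of 0.01, only the groups compared, control terms and left-out arrays. R 4.3.3 with limma 3.58.1 and Python 3.11.15 with matplotlib 3.10.9 were used.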

Additional observations from a re-analysis of the deposited data

Results flagged for a closer look

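In 2 collagen genes the RV minus LV difference ran in opposite directions in the genotypes, with no overlap between the ventricles' arrays in either. The share of all genes with this pattern was not counted. For Col5a2 the gaps were narrow. Its highest WT LV value was 11.10 and its lowest WT RV value 11.15. Its lowest KO LV value was 12.09 and its highest KO RV value 12.07. Both genes were also among those lowest on the high-control arrays. Col4a6 differed by 0.36 in WT and by -0.32 in KO, and Col5a2 by 0.41 in WT and by -0.33 in KO. The interaction term of limma, which tests this difference, was -0.68 for Col4a6 and -0.74 for Col5a2, each with an adjusted p of 0.314, so neither passed the threshold.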

How the results depend on the processing

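Counts of collagen genes are given here. In KO LV the 14 higher calls became 1 with the indicator for high-control arrays, and stayed within 1.5 times in the other settings. The 2 lower calls became 0 at a threshold of 0.01, with median centring and with the indicator, and 1 with renewed quantile normalization, the mean of probe sets, the replicate block or the poly-A term. In KO RV the 1 lower call became 0 at 0.01, with centring, the mean of probe sets, only the 2 groups or the poly-A term, and 4 with array weights. The interaction's 0 lower calls became 9 with array weights. For RV minus LV in WT the 2 higher calls became 1 at 0.01, with the mean of probe sets, the poly-A term or without 2 arrays of extreme nuclear RNA (WT LV replicate 2 and KO LV replicate 3), 0 with only the 2 groups or the indicator, and 7 with array weights. In KO the 0 lower calls became 10 with array weights, 1 with only the 2 groups and 3 with the replicate block. Array weights also raised the counts over all 18194 genes. These went from 652 to 1506 lower in KO RV and from 4 to 847 lower for the interaction. Between ventricles they went from 139 to 1435 higher in WT and from 108 to 367 lower in KO. Directions reversed for single probe sets of Col8a1 (LV 0.11), Col9a1 (LV -0.11) and Col12a1 (LV -0.09 in 2 of them, RV -0.11), and for Col13a1 with the indicator (LV -0.18); the cause was not tested. Over fits without 1 array, higher and lower calls ranged from 13 to 15 and 0 to 3 in LV, 3 to 5 and 0 to 1 in RV, 0 to 0 and 0 to 8 for the interaction, 1 to 8 and 0 to 0 between ventricles in WT, and 1 to 1 and 0 to 1 in KO. Each count of 8 came without WT RV replicate 3, for which the shares over all genes are given above. In that fit ventricle and control level coincide in WT. Of the single-gene values under these settings, 491 kept direction and call, 85 lost the call and 6 reversed. Signal over background was not analysed here.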
